A study of Homo sapiens with 12 samples.

Results

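The integrated stress response and amino acid genes are 34 genes that carry the transcriptional output of ATF4, chosen by symbol for known function and found in the count table by Ensembl identifier. Earlier results of these data were known when the genes were chosen. All 34 of 34 symbols were found among the 58302 identifiers counted. They fell into 6 roles, namely transcription factors, feedback and stress effectors, enzymes of serine, glycine and one-carbon metabolism, enzymes of asparagine, proline, alanine and sulfur amino acid metabolism, amino acid transporters, and tRNA charging and export. They were followed to ask whether doxycycline (Dox), which was used here to induce the knockout, or the BMP signal moved this program.

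In the integrated stress response, kinases that sense amino acid shortage, unfolded protein, double-stranded RNA or heme and mitochondrial stress phosphorylate the translation initiation factor eIF2. General translation then falls while translation of *ATF4* mRNA rises, and ATF4 protein, often paired with C/EBP proteins, switches on genes for amino acid uptake, amino acid synthesis and tRNA charging. Doxycycline also inhibits mitochondrial ribosomes, and mitochondrial stress is one known trigger of this response. RNA levels report the ATF4 targets but not the translation of *ATF4* itself.

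The libraries came from NCIH838 cells, a human lung adenocarcinoma cell line, engineered as a single-cell clone to express Cas9 and a *MIB1* guide on Dox (MIB1-iKO). Cells grew for 3 days in 50 nM LDN, an inhibitor of BMP type I receptors, without Dox (MIB1 WT) or with 0.5 µg/mL Dox (MIB1 KO), and were then replated for 24 h with 10 ng/mL BMP4. During those 24 h they received either 50 nM LDN again (BMP-off) or DMSO in its place (BMP-on). Each of the 4 groups had 3 libraries, and nothing states that these were separate cultures, so that p-values measure only the spread between these samples. All cells carried the same editing construct, all received LDN first and BMP4 later, and all KO libraries had Dox while no WT library did. Loss of *MIB1* and exposure to Dox therefore cannot be told apart. BMP-on and BMP-off differed only in LDN or DMSO during the last 24 h. The BMP signal and any other effect of LDN therefore cannot be told apart either.

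Total counts ranged from 19124010 to 29498000 per library. *MIB1*, the targeted gene, lay between 144 and 173 CPM (counts scaled to a common library size) in the 6 WT libraries and between 31.1 and 34.8 CPM in the 6 KO libraries. The epithelial keratins *KRT8* and *KRT18* were abundant, at means of 32.9 and 79.3 RPKM (reads scaled for library size and for exon length), but *KRT19* had only 12 counts in all. Of the immune markers 2 of 5 passed the filter on low counts and the list summed to 3.70 to 5.98 CPM per library, with the leukocyte marker *PTPRC* at 0 counts. Of the endothelial markers 3 of 4 passed it, at a sum of 0.52 to 1.80 CPM, with *KDR* at 1 count in all. Libraries differed in how counts followed GC content: across genes, Spearman's rho between GC content and a library's deviation from the mean of its own group ran from -0.60 in KO BMP-off replicate 2 to 0.59 in KO BMP-off replicate 3. In bulk RNA, fewer cells of a type and less RNA per cell cannot be told apart.

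Some members carry the C/EBP-ATF response element, the site that ATF4 with a C/EBP partner is known to bind, close to the transcription start. RefSeq promoters on GRCh38.p14, from 250 bases before to 50 bases after a start, were found for 28 of the 34 members. The motif TGATGNAA, on either strand, was present in 7 of the 44 promoters of these members, or 15.9%, each of a different member, and in 3.62% of all 35116 promoters. The matched members were *AARS1*, *ASNS*, *CEBPG*, *CHAC1*, *GARS1*, *SLC3A2* and *SLC7A1*. The windows of the 5 with the highest RNA level are shown because they hold the element that ATF4 is known to bind, with the motif in capitals. They are read 5′ to 3′ on the strand of the gene, and a match on the other strand appears as its reverse complement.
SLC3A2, chr11:62881725-62881748, plus strand: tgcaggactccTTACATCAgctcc
GARS1, chr7:30594834-30594863, plus strand: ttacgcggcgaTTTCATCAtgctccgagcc
AARS1, chr16:70289675-70289704, minus strand: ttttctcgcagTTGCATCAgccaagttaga
SLC7A1, chr13:29595663-29595692, minus strand: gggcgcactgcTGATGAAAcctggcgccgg
CEBPG, chr19:33374060-33374089, plus strand: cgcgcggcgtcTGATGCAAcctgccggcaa
The window of *SLC3A2* ends where the promoter window ends. The cyclic AMP response element TGACGTCA was found in 1 of the 44, that of *PPP1R15A*, or 2.27%, against 1.85% of all promoters, and the ER stress element, CCAAT and CCACG set apart by any 9 bases, in 0 of the 44, against 0.0769% of all promoters. These are matches of letters and not measured sites of binding. Because the members were chosen as known output of ATF4, the share of 15.9% is not independent support for a link to ATF4.

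The members were expressed over a wide range of levels. The light and heavy chains of the large neutral amino acid exchanger, *SLC7A5* and *SLC3A2*, had mean levels of 248 and 145 RPKM, with the seryl-tRNA synthetase *SARS1* at 170 RPKM and the glutamine transporter *SLC38A2* at 127 RPKM. *ATF4* itself stood at 27.7 RPKM, and its partners *CEBPB* and *CEBPG* at 48.6 and 16.8 RPKM. At the low end were *CBS*, which makes cystathionine, at 0.92 RPKM, the glutathione-degrading enzyme *CHAC1* at 0.55 RPKM, the stress-responsive nuclear protein *NUPR1* at 0.24 RPKM and asparagine synthetase, *ASNS*, at 0.07 RPKM. *CBS* has a near-identical copy in some annotations, so that its level is uncertain.

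**Figure D1:**
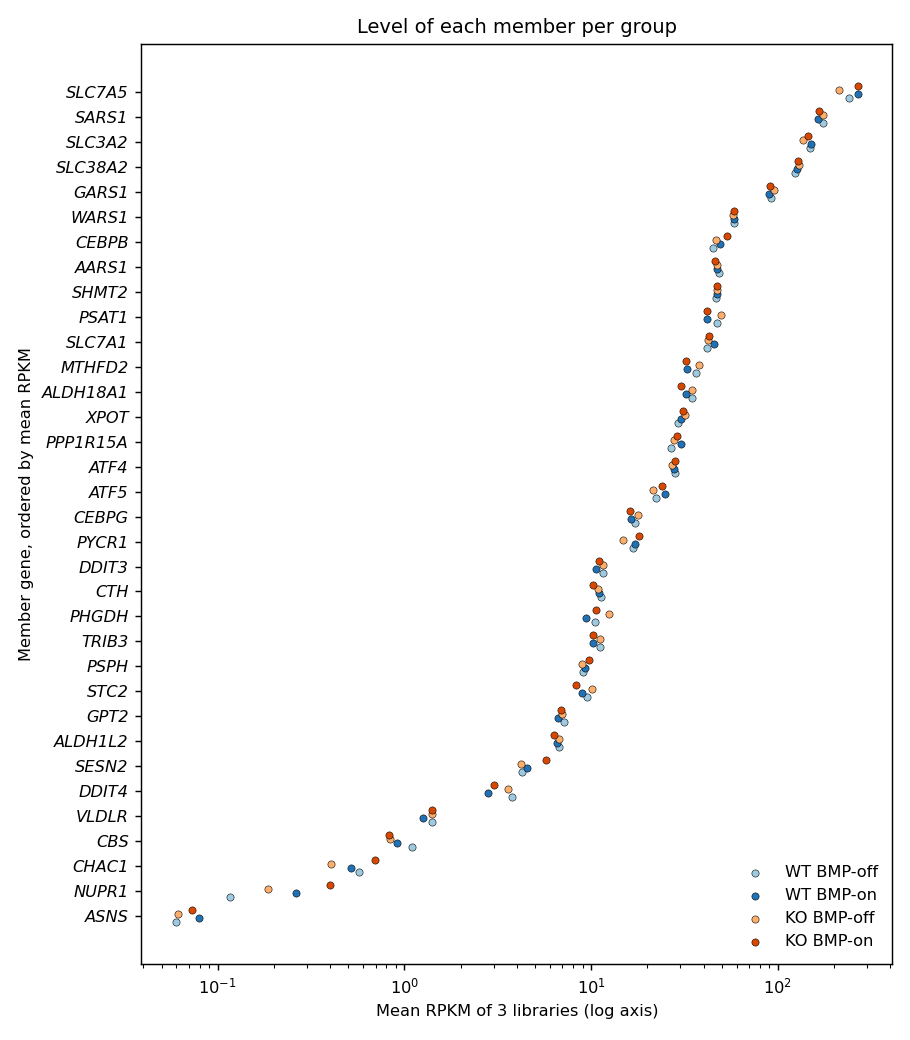
Mean RPKM of each of the 34 members in each of the 4 groups (3 libraries each, log axis), ordered by mean level from *ASNS* (0.07 RPKM) to *SLC7A5* (248 RPKM). The 4 groups lie close together for nearly every member, and *NUPR1* is the one with the widest separation.

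The near absence of *ASNS* counts cannot be read as absence of its RNA. *ASNS* (chr7:97851677-97872542, minus strand, GENCODE v44) had 1 to 7 counts per library and 50 in all. A long noncoding RNA on the same strand, ENSG00000284707, is annotated over 1683 of the 1752 coding bases of *ASNS*, or 96.1%, and had 48 counts in all. Reads on bases shared by 2 genes can be left unassigned when exons are counted, and whether this happened to *ASNS* was not tested. *ASNS* did not pass the filter on low counts, so that 33 of the 34 members were tested.

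Few members of the program differed with Dox. With BMP-off, 0 of 33 members passed in edgeR's quasi-likelihood test (Benjamini-Hochberg adjusted p, threshold 0.05), where 0.0407% of the 17188 genes tested passed. At an unadjusted p under 0.05 there were 3 members, against 10.2% of all genes, and DESeq2 and limma-voom also called 0 members. With BMP-on 1 member passed, *NUPR1*, where 3.67% of all genes did. The median log2 fold change of the members was -0.01 with BMP-off and 0.01 with BMP-on, beside -0.01 and 0.00 over all genes tested. Averaged over both BMP states, again 1 member, *NUPR1*, passed, where 2.93% of all genes did, and 17 of 33 members had a positive log2 fold change. The shares for members are near the background and are not a result about the members as a group.

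The intervals show how large a Dox effect could have gone unseen. For the mean of both BMP states, the 95% interval of the log2 fold change lay within 0.5 of zero for 31 of the 33 members, and *NUPR1* and *CBS* were the exceptions. For the 20 members whose mean reached 1000 counts per library, all bounds lay between -0.27 and 0.18. The widest intervals belonged to members of few counts: that of *CHAC1*, at a mean of 26.7 counts per library, ran from -0.47 to 0.38. The mean of both states can hide effects of opposite sign, and each state alone was measured less closely. Intervals lay inside the same limit of 0.5 for 30 of the 33 members with BMP-off and for 29 with BMP-on. Over all tested members the bounds ran from -1.12 to 1.16 with BMP-off and from -0.62 to 0.98 with BMP-on.

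**Figure D2:**
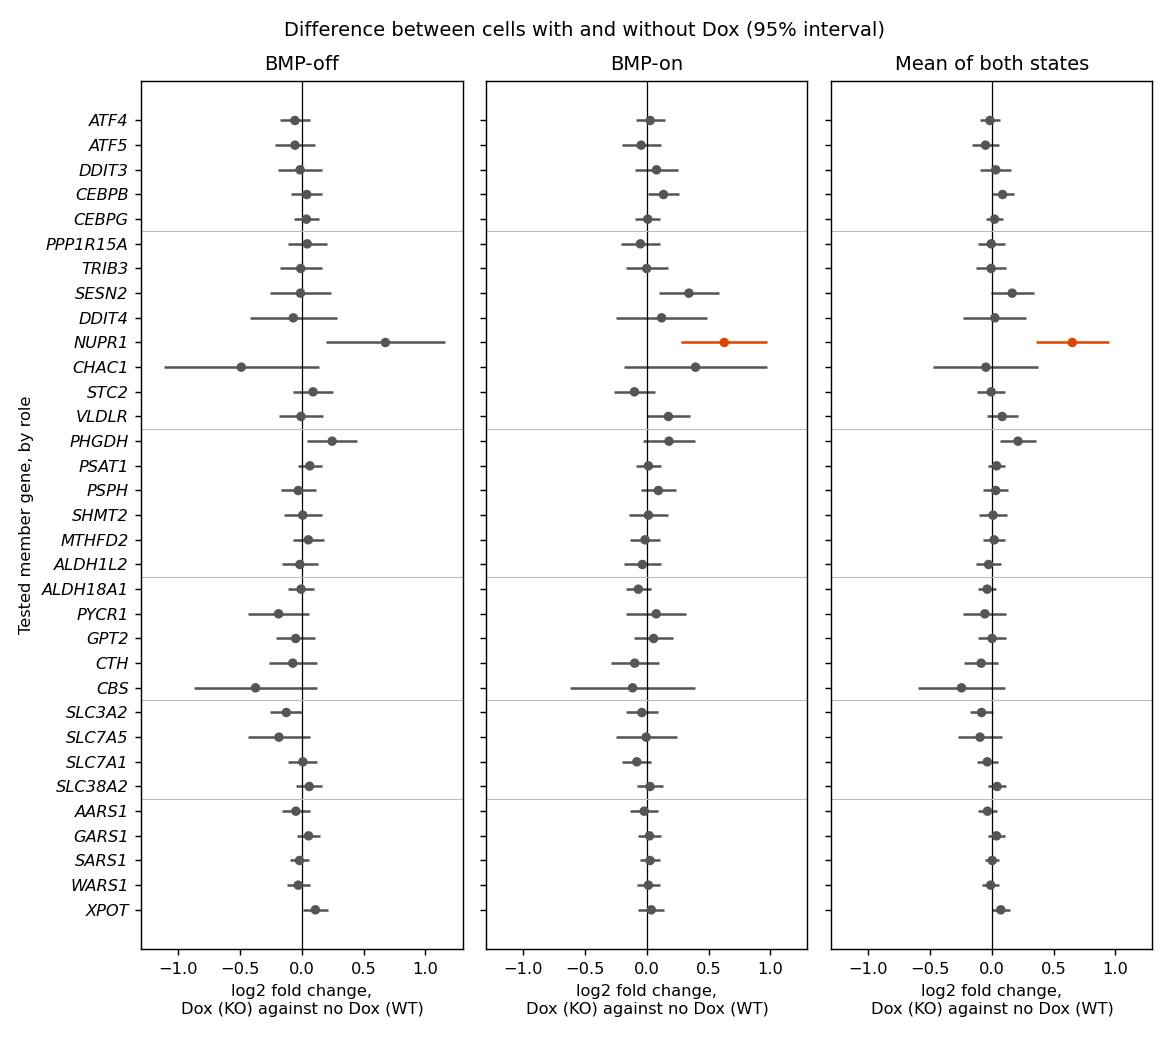
Log2 fold change of Dox (KO) against no Dox (WT) for the 33 tested members with BMP-off, with BMP-on and as the mean of both states; points are estimates, bars are 95% intervals and grey lines part the 6 roles. Orange marks an adjusted p of at most 0.05, reached only by *NUPR1* with BMP-on and in the mean of both states.

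Among the 5 transcription factors, none passed in either Dox comparison. *ATF4* (chr22:39519695-39522683), the factor at the centre of the response, measured 63.2, 70.3 and 66.8 CPM in the WT BMP-off libraries and 59.5, 67.7 and 66.1 CPM in the KO BMP-off libraries. With BMP-on it measured 65.7, 66.5 and 68.8 CPM in WT cells and 73.0, 67.7 and 67.3 CPM in KO cells. The groups overlapped in both BMP states, and the mean log2 difference between Dox and no Dox was -0.02, with a 95% interval from -0.10 to 0.07. *DDIT3*, which encodes the proapoptotic factor CHOP, measured 13.7, 13.1 and 12.1 CPM in WT BMP-off and 12.4, 13.6 and 12.7 CPM in KO BMP-off libraries. With BMP-on its levels were 11.82, 12.07 and 11.98 CPM in WT and 12.19, 12.13 and 14.11 CPM in KO libraries. KO and WT overlapped with BMP-off, while with BMP-on all 3 KO libraries lay just above the 3 WT libraries, by less than the test could call (log2 fold change 0.08, edgeR, Benjamini-Hochberg adjusted p = 0.779). Of the exonic bases of *DDIT3*, 27.2% lie opposite *MARS1*, which had 96140 counts in all beside 3825 for *DDIT3*; whether strand was used in counting is not given in the sources used here, so that reads from both genes may be mixed.

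*CEBPB*, a C/EBP factor that pairs with ATF4, was higher with BMP-on in KO cells, a direction that turned with correction for GC content. Its levels were 81.5, 82.4 and 87.6 CPM in WT BMP-off, 92.7, 87.0 and 96.8 CPM in WT BMP-on, 89.7, 80.6 and 89.0 CPM in KO BMP-off, and 103, 97.2 and 108 CPM in KO BMP-on libraries. In KO cells the BMP-on libraries all lay above the BMP-off libraries, and the log2 fold change was 0.23 ± 0.06 (SE; adjusted p = 0.011, edgeR with Benjamini-Hochberg adjustment). In WT cells the change was 0.14 ± 0.06 (adjusted p = 0.28), with overlapping groups. *CEBPB* has the highest GC content of the members named here, 66.2%, and after GC correction its BMP response in KO cells was -0.23 (adjusted p = 0.314). The correction can also remove differences between groups that follow GC content. *ATF5* and *CEBPG*, the other factors, ranged from 49.2 to 67.5 CPM and from 66.0 to 76.5 CPM over the 12 libraries and passed in no comparison. *ATF5* lay higher with BMP-on without overlap in WT cells (0.17, edgeR, Benjamini-Hochberg adjusted p = 0.286) and KO cells (0.18, adjusted p = 0.0982). After GC correction these values were 0.10 and -0.06. Of its exonic bases 19.5% lie opposite *NUP62*, which had 75802 counts in all beside 17157 for *ATF5*, so that reads may be mixed.

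Of the 8 feedback and stress effectors, *NUPR1* was the one to pass between Dox and no Dox, while *SESN2* passed only in some alternatives. *NUPR1* (chr16:28532708-28539008, minus strand) encodes a small chromatin-associated protein induced by many cell stresses and is a known target of ATF4. It measured 0.46, 0.70 and 0.68 CPM in WT BMP-off, 1.42, 1.32 and 1.43 CPM in WT BMP-on, 0.93, 1.02 and 0.96 CPM in KO BMP-off, and 2.17, 1.93 and 2.41 CPM in KO BMP-on libraries. The 4 groups did not overlap, and they stood in the order WT BMP-off, KO BMP-off, WT BMP-on, KO BMP-on. Averaged over both BMP states, the log2 fold change with Dox was 0.65 ± 0.14 (SE; edgeR, Benjamini-Hochberg adjusted p = 0.0167).

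For *NUPR1* a BMP response was seen with and without Dox. Its estimates were larger than that of the difference between Dox and no Dox, and whether they differ from it was not tested. The log2 fold change of BMP-on against BMP-off was 1.20 ± 0.21 in WT cells (SE; adjusted p = 0.0027, edgeR with Benjamini-Hochberg adjustment) and 1.15 ± 0.18 in KO cells (adjusted p = 0.00021). The difference between these responses was -0.05, with a 95% interval from -0.62 to 0.52. These values rest on 13 to 61 counts per library. The Dox call in the BMP-on state alone was weak (log2 fold change 0.63, adjusted p = 0.0454) and was lost in 17 of 25 alternatives, 10 of which left out a single library, and also DESeq2 (adjusted p = 0.199) and the fit with the replicate block (adjusted p = 0.079), over a range from 0.0265 to 0.366. The call for the mean of both states was lost without WT BMP-off replicate 1, at a log2 fold change of 0.56 and an adjusted p of 0.0571.

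**Figure D3:**
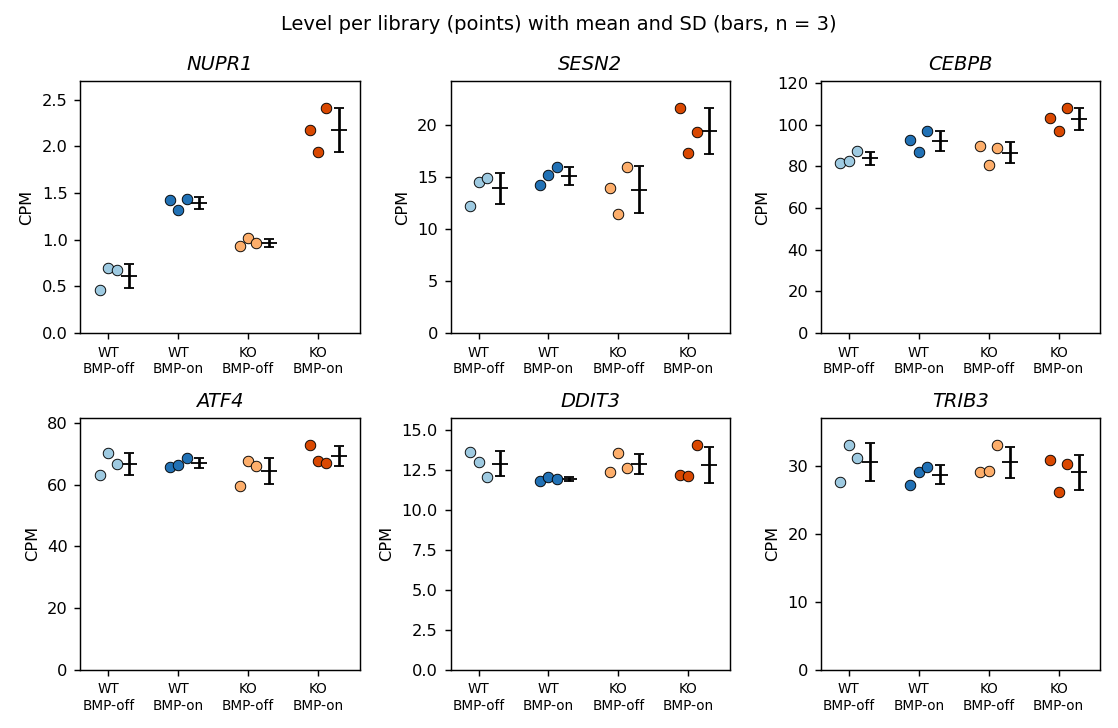
CPM of *NUPR1*, *SESN2*, *CEBPB*, *ATF4*, *DDIT3* and *TRIB3* in each of the 12 libraries (points), with the mean and SD of each group of 3 (bars); every axis starts at 0. *NUPR1* rises from 0.46 to 2.41 CPM over 4 groups that do not overlap, *SESN2* is highest in KO BMP-on, and *ATF4*, *DDIT3* and *TRIB3* stay within narrow ranges.

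*SESN2*, a leucine sensor that restrains mTORC1, was highest in the KO BMP-on libraries. It measured 12.2, 14.5 and 14.9 CPM in WT BMP-off, 14.2, 15.2 and 15.9 CPM in WT BMP-on, 14.0, 11.5 and 15.9 CPM in KO BMP-off, and 21.6, 17.3 and 19.3 CPM in KO BMP-on libraries. The KO BMP-on group overlapped with none of the others, and the other 3 groups overlapped each other. *SESN2* rose with BMP in KO cells, by a log2 fold change of 0.48 ± 0.11 (SE; edgeR, Benjamini-Hochberg adjusted p = 0.00737), and the change in WT cells was 0.13 ± 0.12 (adjusted p = 0.674). The contrast of both responses, 0.35, did not pass (adjusted p = 0.466). After GC correction the response in KO cells was 0.26 (adjusted p = 0.0111). Between Dox and no Dox with BMP-on, where the groups did not overlap, *SESN2* had a log2 fold change of 0.34 ± 0.11 that did not pass (adjusted p = 0.139) but passed in 5 of 25 alternatives, namely GC correction with and without the replicate block, only the groups compared, no filter on low counts, and without KO BMP-off replicate 2 (adjusted p from 0.0093 to 0.473 over all 25). Averaged over both BMP states, *SESN2* also passed between Dox and no Dox with GC correction (0.20, edgeR, Benjamini-Hochberg adjusted p = 0.0165). With GC correction and the replicate block the value was 0.20 (adjusted p = 0.0235).

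*TRIB3* and *CHAC1*, which are among the targets most often read as signs of an active response, did not pass in any comparison without GC correction. *TRIB3*, a pseudokinase that dampens ATF4, measured 27.6, 33.0 and 31.1 CPM in WT BMP-off, 27.1, 29.02 and 29.8 CPM in WT BMP-on, 29.04, 29.2 and 33.1 CPM in KO BMP-off, and 30.9, 26.1 and 30.2 CPM in KO BMP-on libraries, so that all groups overlapped. Its mean log2 difference between Dox and no Dox was -0.01 (95% interval -0.13 to 0.11). Its GC content is 61.5%, and its BMP response in KO cells of -0.08 became -0.38 with GC correction, which passed (edgeR, Benjamini-Hochberg adjusted p = 0.000483). *CHAC1* measured 1.06, 1.44 and 0.86 CPM in WT BMP-off, 1.13, 0.81 and 1.11 CPM in WT BMP-on, 0.97, 0.77 and 0.63 CPM in KO BMP-off, and 1.05, 1.99 and 1.15 CPM in KO BMP-on libraries. Its highest value came from 1 library, KO BMP-on replicate 2, and its BMP response in KO cells of 0.74 ± 0.29 did not pass (SE; edgeR, Benjamini-Hochberg adjusted p = 0.077).

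*STC2*, a secreted glycoprotein induced by ER stress, fell with BMP in KO cells. It measured 54.2, 48.3 and 51.2 CPM in KO BMP-off and 44.6, 47.0 and 39.7 CPM in KO BMP-on libraries, groups that did not overlap, with a log2 fold change of -0.25 ± 0.08 (SE; edgeR, Benjamini-Hochberg adjusted p = 0.029). In WT cells it measured 50.1, 44.7 and 49.0 CPM in BMP-off and 49.3, 44.7 and 44.4 CPM in BMP-on libraries, and these overlapped (-0.06 ± 0.08, adjusted p = 0.791). The phosphatase subunit *PPP1R15A*, which reverses eIF2 phosphorylation, ranged from 57.6 to 77.6 CPM over the 12 libraries. It lay higher with BMP-on without overlap in WT cells (0.19, edgeR, Benjamini-Hochberg adjusted p = 0.203), and its value in KO cells was 0.09 (adjusted p = 0.392). After GC correction the value in WT cells was 0.14 (adjusted p = 0.619). The mTORC1 inhibitor *DDIT4* ranged from 3.69 to 6.996 CPM and the lipoprotein receptor *VLDLR* from 10.3 to 13.3 CPM. None of these 3 passed without GC correction, with which *DDIT4* was lower with BMP-on in WT cells (-0.45) and in KO cells (-0.42).

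The serine, glycine and one-carbon enzymes showed no call with Dox and 2 calls with BMP, both lower in KO cells. *PSAT1*, the aminotransferase of serine synthesis, measured 98.7, 99.1 and 95.4 CPM in WT BMP-off, 89.7, 88.4 and 85.7 CPM in WT BMP-on, 104, 106.3 and 97.9 CPM in KO BMP-off, and 88.2, 90.4 and 91.6 CPM in KO BMP-on libraries. BMP-on lay below BMP-off without overlap in WT and in KO cells, and the response passed in KO cells (-0.21 ± 0.05, SE; edgeR, Benjamini-Hochberg adjusted p = 0.00462) and was -0.15 ± 0.05 in WT cells (adjusted p = 0.0788), where it passed with GC correction (-0.13, adjusted p = 0.0287). KO and WT responses differed by -0.05 (adjusted p = 0.779), a difference that did not pass.

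*MTHFD2*, the mitochondrial folate dehydrogenase, followed a similar course. It measured 155, 162 and 144 CPM in WT BMP-off, 141, 134 and 143 CPM in WT BMP-on, 162, 171 and 147 CPM in KO BMP-off, and 134, 147 and 141 CPM in KO BMP-on libraries. WT groups did not overlap and KO groups did so only marginally, and the response was -0.20 ± 0.06 in KO cells (SE; edgeR, Benjamini-Hochberg adjusted p = 0.0215), against -0.14 ± 0.06 in WT cells (adjusted p = 0.272). *PHGDH*, the first enzyme of serine synthesis, was singled out after its values were seen: averaged over both BMP states it had a log2 fold change of 0.21 ± 0.07 with Dox, the highest value after that of *NUPR1*, and it did not pass (adjusted p = 0.136) but passed with GC correction (0.23, adjusted p = 0.0099), without a filter on low counts and without KO BMP-off replicate 2. It measured 25.2, 27.5 and 26.4 CPM in WT BMP-off and 32.0, 26.0 and 36.0 CPM in KO BMP-off libraries, which overlapped, and 22.5, 23.8 and 25.8 CPM in WT BMP-on and 28.96, 27.2 and 26.8 CPM in KO BMP-on libraries, which did not. *PSPH*, *SHMT2* and *ALDH1L2*, the other enzymes of this role, ranged from 17.3 to 21.2, from 118 to 149 and from 43.6 to 51.9 CPM and did not pass, except that with GC correction *PSPH* (0.18) and *SHMT2* (-0.11) passed in the BMP response of KO cells.

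Of the enzymes of asparagine, proline, alanine and sulfur amino acid metabolism, *ALDH18A1*, which makes the proline precursor pyrroline-5-carboxylate, was the one that passed, and only in the BMP response of KO cells. It measured 111, 108 and 112 CPM in KO BMP-off and 103, 98.3 and 98.9 CPM in KO BMP-on libraries, which did not overlap (-0.16 ± 0.05, SE; edgeR, Benjamini-Hochberg adjusted p = 0.0278). In WT cells it measured 114, 105 and 112 CPM in BMP-off and 101, 106.04 and 102 CPM in BMP-on libraries (-0.10 ± 0.05, adjusted p = 0.366). The proline enzyme *PYCR1*, the alanine transaminase *GPT2*, the cystathionine lyase *CTH* and *CBS* ranged from 26.4 to 43.9, from 25.9 to 32.6, from 19.5 to 25.6 and from 1.503 to 3.66 CPM, and none passed in any comparison, although *PYCR1* passed in the BMP response of KO cells with DESeq2, limma-voom and other scalings.

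Of the 4 amino acid transporters 1, *SLC7A5*, passed, in the BMP response of KO cells. *SLC7A5*, the light chain that imports leucine, measured 952, 1031 and 1169 CPM in WT BMP-off and 1246, 1156 and 1160.1 CPM in WT BMP-on libraries. In KO cells it measured 966, 763 and 1049 CPM in BMP-off and 1232, 1248 and 1124 CPM in BMP-on libraries. KO groups did not overlap, while WT groups did, and the responses were 0.36 ± 0.11 in KO cells (SE; edgeR, Benjamini-Hochberg adjusted p = 0.0445) and 0.18 ± 0.11 in WT cells (adjusted p = 0.523). The GC content of *SLC7A5* was 61.2%, and its lowest value was in KO BMP-off replicate 2, the library with the lowest GC trend. After GC correction its response in KO cells was 0.08 (adjusted p = 0.226), and without KO BMP-off replicate 2 it was 0.22 (adjusted p = 0.0357). Of the 12 libraries, leaving out any of 7 lost the call. *SLC3A2*, the cationic amino acid transporter *SLC7A1* and *SLC38A2* ranged from 317 to 405, from 272 to 334 and from 559 to 658 CPM and did not pass, except that with GC correction *SLC38A2* passed with BMP in KO cells (0.12) and *SLC7A1* in WT cells (0.15).

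None of the 5 genes of tRNA charging and export passed with Dox or BMP. *AARS1*, *GARS1*, *SARS1* and *WARS1*, which load alanine, glycine, serine and tryptophan onto their tRNAs, and *XPOT*, which exports tRNA from the nucleus, carry the last steps of amino acid supply to translation. In KO cells their BMP responses lay between -0.04 and 0.05, and averaged over both BMP states their Dox effects lay between -0.04 and 0.07. *GARS1* and *AARS1*, whose promoters hold the motif printed above, ranged from 225 to 249 CPM and from 146 to 167 CPM over the 12 libraries.

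**Figure D4:**
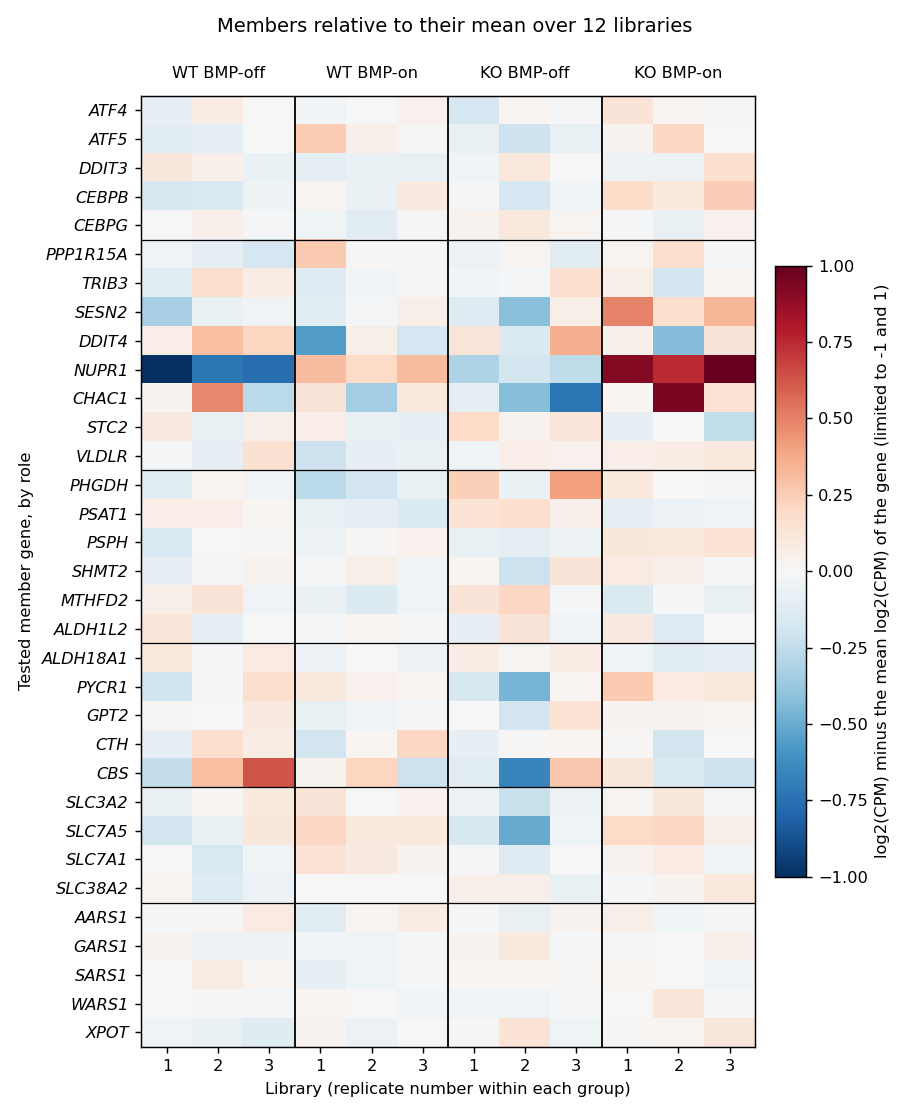
Log2(CPM) of the 33 tested members in each of the 12 libraries, as the difference from the gene's own mean over all libraries (colours limited to -1 and 1), with members ordered by role and groups parted by black lines. *NUPR1* is lowest in the WT BMP-off libraries and highest in the KO BMP-on libraries, while the rows of *ATF4* and of the tRNA charging genes stay pale.

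Across the program, few members passed with BMP in WT cells, and a share near that of all genes passed in KO cells. In WT cells 1 of 33 members, *NUPR1*, passed (edgeR, Benjamini-Hochberg adjustment), where 3.92% of all genes did. At an unadjusted p under 0.05 there were 9 of the 33 members in WT cells, beside 2637 of all 17188 genes. The members were chosen with earlier results of these data known, so that this count is not a result about them as a group. In KO cells 8 of 33 members passed, or 24.2%, where 22.0% of all genes did, so that the count is near the background and is not a result about the members. *NUPR1*, *SESN2*, *SLC7A5* and *CEBPB* were higher, as were 11.1% of all genes, and *STC2*, *PSAT1*, *MTHFD2* and *ALDH18A1* lower, as were 10.9% of all genes. The median over the members was 0.02 beside 0.01 over all genes. Among the higher members, *SLC7A5*, *CEBPB*, *SESN2* and *NUPR1* have GC contents of 61.2%, 66.2%, 59.6% and 50.0%. Among the lower, *PSAT1*, *MTHFD2*, *STC2* and *ALDH18A1* have 42.5%, 42.2%, 50.1% and 49.2%. With GC correction 12 members passed, 4 higher and 8 lower, where 24.8% of all genes did. Of these 12, 6 were among the 8, *CEBPB* and *SLC7A5* were lost, and *PSPH* and *SLC38A2* (higher) and *TRIB3*, *DDIT4*, *PHGDH* and *SHMT2* (lower) were gained. Of the fibroblast markers 2 of 5 could be tested and both were higher in this comparison, *COL1A1* by 1.39 and *PDGFRB* by 0.92 on the log2 scale, while *COL1A2*, *COL3A1* and *DCN* had 24, 35 and 13 counts over all libraries. The 5 summed to 14.2 to 21.3 CPM in WT BMP-off, 28.985 to 30.8 CPM in WT BMP-on, 12.1 to 19.9 CPM in KO BMP-off and 34.9 to 43.1 CPM in KO BMP-on libraries, while the epithelial list summed to 291 to 297, 308 to 329, 265 to 307 and 320 to 371 CPM in these groups. In the same comparison *KRT8* was higher by 0.61 and *EPCAM* was at -0.61, 2 of 4 epithelial markers tested, and of 3 endothelial markers *CDH5*, at 81 counts in all, was lower at -2.28 (edgeR, Benjamini-Hochberg adjusted p = 0.0316). The 2 immune markers tested did not pass, and the part of these markers in the members' changes was not tested.

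The BMP response did not differ detectably between KO and WT cells for any member. In the test of the difference itself 0 of 33 members passed, where 0.0931% of all genes did, and 2 members had an unadjusted p under 0.05, against 10.6% of all genes. DESeq2 and limma-voom also called 0 members. These 2 were *CHAC1*, with a difference of 0.88 ± 0.40 (SE; edgeR, Benjamini-Hochberg adjusted p = 0.456), and *SESN2*.

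**Figure D5:**
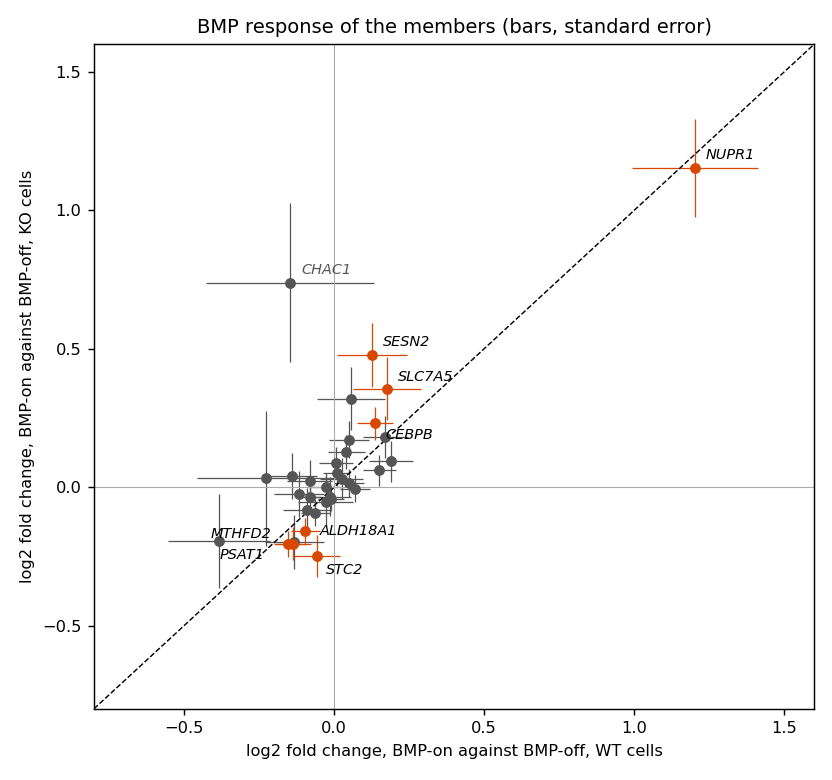
Log2 fold change of BMP-on against BMP-off for the 33 tested members in WT cells (horizontal) and KO cells (vertical); bars are standard errors, the dashed line marks equal responses and orange marks an adjusted p of at most 0.05 in KO cells. *NUPR1* lies near the line at 1.20 and 1.15, and *CHAC1*, labelled in grey, lies above it with wide bars.

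Of other genes of the stress pathways, a few further targets of ATF4 differed with Dox. Among 17 genes of the eIF2 kinases, eIF2 and its exchange factor, 16 other cytosolic tRNA synthetases, 15 genes of the other arms of the ER stress response, 10 of the mitochondrial stress response and 13 encoded by mitochondrial DNA, 0 passed in either BMP state (edgeR, Benjamini-Hochberg adjustment). Of all genes, 0.0407% passed with BMP-off and 3.67% with BMP-on. At an unadjusted p under 0.05 there were 2 genes of these lists with BMP-off, beside 10.2% of all genes. With BMP-on there were 6, beside 2372 of all 17188 genes. DESeq2 called 0 genes of these lists, and limma-voom 1 with BMP-on, a gene of mitochondrial DNA. Averaged over both states, *EIF2AK1*, the kinase that senses heme and relays mitochondrial stress, was slightly lower with Dox (-0.12 ± 0.03, adjusted p = 0.0456). Of 17 tested further targets of ATF4, 0 passed with BMP-off (2 at an unadjusted p under 0.05, and 0 by DESeq2 or limma-voom) and 3 with BMP-on, or 17.6%, where 3.67% of all genes did. DESeq2 called 2 and limma-voom 1. The 3 were *BCAT1*, the cytosolic branched-chain aminotransferase, at 0.66 ± 0.15 (adjusted p = 0.0196), *KLHL24*, an adaptor of a ubiquitin ligase, at 0.41 ± 0.08 (adjusted p = 0.00729), and the folate enzyme *MTHFD1L* at -0.18 ± 0.05 (adjusted p = 0.0328). *BCAT1* also passed in the mean of both states (0.64 ± 0.11, adjusted p = 0.00367). The lists were chosen with earlier results of these data known, so that the share of 17.6% is not a result about ATF4 targets as a group.

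In the BMP response of WT cells 0 genes of these 6 lists passed (edgeR), where 3.92% of all genes did, and DESeq2 and limma-voom also called 0. At an unadjusted p under 0.05 there were 12 genes of these lists, beside 2637 of all 17188 genes. In KO cells, where 11.1% of all genes were higher and 10.9% lower, the eIF2 list had 1 gene higher and 4 lower of 17, the further ATF4 targets 4 higher and 5 lower of 17, the tRNA synthetases 3 higher and 2 lower of 16, the ER stress list 2 higher and 1 lower of 15 and the mitochondrial stress list 1 higher and 1 lower of 10. The share that passed was 52.9% for the further ATF4 targets, in both directions, and 20.0% to 31.3% for the other lists, beside 22.0% of all genes. Because the lists were chosen with earlier results of these data known, these shares are not a result about the lists as groups. Of the 13 genes of mitochondrial DNA 4 were higher and 0 lower, and all 13 had positive values, beside 8751 of all 17188 genes. Their median was 0.21 beside 0.01 over all genes. In the BMP response of WT cells 12 of the 13 had positive values, with a median of 0.06 beside 0.00 over all genes. Between Dox and no Dox, 4 of the 13 were positive with BMP-off and 12 with BMP-on. In the BMP response of KO cells the 4 became 1 without KO BMP-off replicate 1 or KO BMP-on replicate 1. The 5 smallest adjusted p-values of these lists belonged to *KLHL24* (0.50 ± 0.08, edgeR, Benjamini-Hochberg adjusted p = 0.000351), *MT-ND2*, a subunit of complex I (0.30 ± 0.06), *EIF2AK2*, the kinase of double-stranded RNA (-0.25 ± 0.05), the histidyl-tRNA synthetase *HARS1* (0.22 ± 0.04) and *EIF2AK3*, the ER stress kinase (-0.30 ± 0.07).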

How the data were processed

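RNA-seq libraries from MIB1-iKO cells were grouped by the labels as Dox or no Dox with LDN+BMP4 (BMP-off) or DMSO+BMP4 (BMP-on), 3 per group. The authors removed ribosomal reads, aligned the remainder to GRCh38 with GSNAP and counted exonic reads with HTSeqGenie; the deposited counts are whole numbers without normalization for 58302 Ensembl identifiers. The authors' deposited RPKM values served for levels between genes and for alternatives. Methods describe a stranded kit and, for low input, an unstranded one, and the kit used here is not given in the sources used here. GENCODE v44 gave symbols for 57532 identifiers. The members and gene lists were chosen with earlier results of these data known.

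Counts were tested in R 4.3.3 with edgeR 4.0.16 (TMM scaling, default filter on low counts, robust quasi-likelihood fit of 4 group means over 12 libraries) and Benjamini-Hochberg adjustment over 17188 genes; an adjusted p of at most 0.05 passed. The scripts were tested on simulated data. TMM factors lay between 0.984 and 1.02. CPM are TMM-scaled, and standard errors and 95% intervals come from the fit. Members passing in any of 6 comparisons and *ATF4*, *DDIT3*, *ASNS*, *TRIB3* and *CHAC1* were described in full; of the other lists, up to 5 genes of smallest adjusted p. Alternatives were DESeq2 1.42.0, limma 3.58.1 (voom with quantile normalization, or log2(RPKM + 1) and log2(RPKM + 0.1)), other scalings and filters, a GC correction by loess (span 0.4), replicate number as a block, only the groups compared, and leaving out each library. The GC correction fitted each library's deviation from the mean of all 12 libraries, so that it can also remove differences between groups that follow GC content. Between replicates of a group, counts varied 2.98 to 17.2 times as much as counting alone gives, so no library was a duplicate. No other sample columns were present.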

Additional observations from a re-analysis of the deposited data

How the results depend on the processing

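For Dox with BMP-off and for the difference between both BMP responses, 0 members passed under every alternative run. With BMP-on the Dox count of 1 became 0 with DESeq2, limma-voom, the replicate block, a log2 fold change of at least 1 and the 3 RPKM fits, and 2 with only the groups compared and with GC correction, alone or with the block; leaving out 1 library gave 0 to 2. For the mean of both states the count of 1 became 0 with the fold minimum and the RPKM fits, 2 without a filter, and 3 with GC correction, alone or with the block; leaving out 1 library gave 0 to 2. In WT cells the BMP count of 1 became 4 with GC correction, alone or with the block, and 0 in the RPKM fits; leaving out 1 library gave 1. In KO cells the BMP count of 8 became 1 with the fold minimum, 4 with only the groups compared and 3 with log2(RPKM + 1) without a filter, and leaving out 1 library gave 4 to 9, with 4 without KO BMP-off replicate 1, KO BMP-on replicate 1 or KO BMP-on replicate 3.

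*NUPR1* passed in KO cells in all 25 alternatives and in WT cells in 22 of 25, with the 3 RPKM fits, whose pseudocounts of 1 and 0.1 stand against a level of 0.24 RPKM, as the exceptions. Its Dox call over both states passed in 20 of 24. Its Dox call with BMP-on was lost without any single library but WT BMP-off replicate 1 or KO BMP-off replicate 2 (adjusted p up to 0.205). *SLC7A5* passed in KO cells in 13 of 25, and was lost without WT BMP-off replicate 2, any WT BMP-on replicate, KO BMP-off replicate 1, or KO BMP-on replicate 1 or 2 (adjusted p up to 0.115). The calls of *STC2*, *MTHFD2* and *ALDH18A1* in KO cells were lost without KO BMP-off replicate 1, KO BMP-on replicate 1 or KO BMP-on replicate 3 (adjusted p 0.0508 to 0.122), that of *MTHFD2* also without KO BMP-off replicate 2 (0.0708), that of *ALDH18A1* without KO BMP-on replicate 2 (0.0734) and that of *CEBPB* without KO BMP-on replicate 3 (0.0536). *CEBPB* in KO cells turned to -0.23 with GC correction and to -0.22 with GC correction and the block. Dox effects near zero changed sign: *ATF4* was 0.016 with GC correction, with or without the block, and ran from -0.032 to 0.0098 when 1 library was left out. *TRIB3* was 0.0089 with library size scaling, 0.0054 with upper quartile scaling, 0.0069 with limma-voom, 0.042 with GC correction and 0.045 with GC correction and the block, and ran from -0.034 to 0.022 without 1 library. *CHAC1* was 0.0042 with GC correction and the block, and ran from -0.21 to 0.047 without 1 library, and *DDIT3* from -0.0035 to 0.062. The cause was not tested.

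Same-numbered replicates showed little pairing: of 18 pairs 2 had a correlation of deviations above 0.1 (range -0.19 to 0.19). These deviations were not corrected for GC content, which they followed in several libraries, so that they cannot decide whether replicates were paired. With the replicate block the counts were 8 in KO cells, 1 in WT cells, 0 for Dox with BMP-on and 1 for the mean of both states, and the 8 were the same genes. *NUPR1*, *CHAC1* and *CBS* had few counts, with means of 32.2, 26.7 and 60.8 per library, and wide intervals. Other scalings moved the median of all genes by at most 0.03.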
